A study of Homo sapiens with 30 samples.

Results

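The enzymes of de novo nucleotide synthesis were followed across 3 RNA-seq experiments in 5637 cells, a human bladder carcinoma line. The 10 genes, CAD, DHODH, UMPS, CTPS1, PPAT, GART, PFAS, PAICS, ATIC and IMPDH2, were taken by symbol in the overexpression and knockdown experiments and by Ensembl identifier in the knockout experiment. The list was named with earlier results of these data known. All 10 were found among the 60612 genes of the knockout experiment and the 56303 genes of each of the other experiments, and all 10 passed the filter on low counts in each of 10 comparisons. The study asked how RBPMS, an RNA-binding protein that acts on splicing, and ANKRD10, whose transcript it splices, bear on the MYC pathway in bladder cancer cells. The experiments comprised 30 libraries in 10 groups of 3. In the knockout experiment the groups KO1 and KO2 were cells with RBPMS knocked out by 2 different sgRNAs. WT1 and WT2, named so by the labels, were the control groups of the same number. The study's results call the controls sgCtrl and its discussion calls them wild-type cells, so whether they carried a control sgRNA is not settled. In the overexpression experiment, cells carried the isoform ANKRD10-1, the isoform ANKRD10-2 or an empty plasmid (Vector). In the knockdown experiment, cells received siANKRD10-1, siANKRD10-2 or a negative control siRNA (siNC). The study describes its knockout populations as grown out from single clones over many passages, and names off-target effects of the sgRNAs as a possible reason for differences between them. Its text places ANKRD10-1 overexpression and siANKRD10-2 in cells already lacking RBPMS, whereas the labels name 5637 cells alone, so the background of those cells is not settled. RBPMS stood at 5.24, 5.43 and 4.73 counts per 1000000 (CPM) in Vector, 4.87, 3.57 and 5.06 in ANKRD10-1, 5.87, 4.62 and 4.53 in siNC and 5.17, 5.14 and 5.03 in siANKRD10-2, beside 39, 42.2 and 40.1 in WT1 and 15.1, 15.2 and 14.3 in KO1. In ANKRD10-2 and siANKRD10-1, which the study's text places in 5637 cells, the means were 5.4 and 4.65 CPM. By edgeR's quasi-likelihood test, RBPMS differed by 0.27 on the log2 scale between ANKRD10-2 and ANKRD10-1 (adjusted p = 0.306). Between siANKRD10-2 and siANKRD10-1 it differed by 0.14 (adjusted p = 0.421). The deposited tables were processed separately, so levels of different experiments are set side by side only.

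Cells build purine and pyrimidine nucleotides from amino acids, carbon dioxide and one-carbon units carried by folate, or recover them from free bases and nucleosides. The purine ring is assembled on a ribose phosphate by PPAT, which catalyses the committed step, and then by GART, PFAS, PAICS, ADSL and ATIC, which ends with inosine monophosphate. IMPDH2 turns that product towards guanine nucleotides. The pyrimidine ring is made by CAD, which holds the opening activities of the pathway, by DHODH on the inner mitochondrial membrane and by UMPS, which yields uridine monophosphate, and CTPS1 converts UTP to CTP. Dividing cells depend on this route. Many of its genes are known targets of MYC, a transcription factor that binds the E-box CACGTG together with its partner MAX.

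The genes lie on 7 chromosomes of GRCh38. CAD (ENSG00000084774, chr2:27217390-27243943, plus strand) and ATIC (ENSG00000138363, chr2:215311817-215349773, plus) share chromosome 2. UMPS (ENSG00000114491, chr3:124730366-124749273, plus) and IMPDH2 (ENSG00000178035, chr3:49024325-49029408, minus) share chromosome 3. PPAT (ENSG00000128059, chr4:56393362-56435615, minus) and PAICS (ENSG00000128050, chr4:56435741-56464579, plus) stand head to head on chromosome 4 with 125 bases between them. CTPS1 (ENSG00000171793, chr1:40979335-41012565, plus), DHODH (ENSG00000102967, chr16:72008588-72027664, plus), PFAS (ENSG00000178921, chr17:8247618-8270491, plus) and GART (ENSG00000159131, chr21:33503931-33543491, minus) are alone on theirs. Some exon bases are shared with a gene on the opposite strand, 275 of 7751 bases (3.55%) for GART with SON, 121 of 5439 (2.22%) for PPAT with AC068620.2 and 93 of 2773 (3.35%) for IMPDH2 with AC137630.3. PAICS has 7 annotated processed pseudogenes and PPAT has 2, and the sources used here do not state whether reads were counted by strand or how reads matching several places were treated.

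The study's reporter assay for MYC used repeats of the E-box, so CACGTG, which reads the same on both strands, was searched in the RefSeq promoter windows of GRCh38.p14 (250 bases before to 50 after each start, 300 bases). The table held 14 windows for 9 of the enzymes, all but IMPDH2, which was not searched. The motif was present in a window of 4 of the 9 (ATIC, PPAT, PAICS and DHODH), of 8.77% of all 27305 genes in the table and of 12.1% of the 12078 genes in it that were tested in KO1. The sites are shown because they are the places where this motif meets the enzymes' start sites, with CACGTG in capitals and each sequence read on the strand of its gene:
ATIC, chr2:215312001-215312030, plus strand: gggccggcgggcCACGTGataagcccggaa
ATIC, chr2:215312076-215312105, plus strand: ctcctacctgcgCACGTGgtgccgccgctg
PPAT, chr4:56435780-56435809, minus strand: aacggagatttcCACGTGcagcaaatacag
PAICS, chr4:56435780-56435801, plus strand: ctgtatttgctgCACGTGgaaa
DHODH, chr16:72008573-72008602, plus strand: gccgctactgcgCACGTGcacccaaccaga
Counted from the RefSeq start base of each window as 1, the motif began at −46 and 30 in ATIC, −182 in PPAT, 41 in PAICS and −159 in DHODH. These starts are not always those of the GENCODE spans given above. By those spans, both ATIC sites lie inside the gene, and the 30 bases printed for DHODH span its start. PPAT and PAICS share 1 genomic site, which lies upstream of PPAT and just inside PAICS. A match describes the letters of a window and does not show that a factor binds there.

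Total counts ran from 44593108 to 69723937 per library in the knockout experiment (median 55581013), from 31736779 to 47493499 in overexpression (median 41852653) and from 28511029 to 32784584 in knockdown (median 32141257). The epithelial genes KRT5, KRT7, KRT8, KRT18, KRT19, EPCAM and CDH1 were abundant in every library, the lowest value being 75.0 CPM for CDH1. The late urothelial genes KRT20 and UPK3A did not exceed 0.112 and 0.0839 CPM. The leukocyte markers PTPRC and CD3E and the endothelial marker CDH5 reached at most 0.414, 0.13 and 0.38. Other markers of such cells were present. COL1A1, a collagen gene of fibroblasts, ran from 26.6 to 52.2 CPM, COL1A2 reached 6.91, LUM 4.61 and CD68, a macrophage marker, 23.7. The endothelial markers PECAM1, VWF and KDR reached 2.01, 2.09 and 1.88 CPM. PECAM1 was higher in KO1 (1.44, adjusted p = 0.00332) and KO2 (1.46, adjusted p = 0.0245) and lower after siANKRD10-2 (−0.93, adjusted p = 0.0134). KDR was higher in KO1, at a mean of 0.4 CPM against 0 in WT1 (adjusted p = 0.00107). COL1A1 was lower in KO1 (−0.53, adjusted p = 0.00025) and higher after siANKRD10-2 (0.22, adjusted p = 0.00903). LUM was lower in KO1 (−6.12, adjusted p = 7.91e-05) and in KO2 (−2.93, adjusted p = 5.61e-07). PDGFRB, also a fibroblast marker, was higher in KO1, at a mean of 1.57 CPM against 0.504 in WT1 (1.63, adjusted p = 0.00401). CD68 was higher in KO2, at a mean of 1.23 CPM against 0.0653 in WT2 (adjusted p = 4.77e-05), and lower after siANKRD10-2 (−0.46, adjusted p = 0.00045), with ANKRD10-2 (−0.34, adjusted p = 0.00428) and with ANKRD10-1 (−0.44, adjusted p = 0.00085). The part of these markers in the enzymes' values was not tested. The targeted gene RBPMS fell in both knockouts, by 63.2% in KO1 and 53% in KO2, with log2 fold changes of −1.44 (SE 0.07, adjusted p = 1.25e-07) and −1.09 (SE 0.06, adjusted p = 5.07e-08) from edgeR. Counts of ANKRD10, which do not separate its isoforms, fell in KO1 (−1.18, adjusted p = 6.55e-08) and KO2 (−0.76, adjusted p = 3.98e-08), the largest changes of this gene against a control group. They rose with ANKRD10-2 and ANKRD10-1 (0.41 and 0.67 on the log2 scale, adjusted p = 8.29e-05 and 4.44e-09) and fell after siANKRD10-2 and siANKRD10-1 (−0.25 and −0.24, adjusted p = 0.00122 and 0.0159). Log2 fold changes and Benjamini-Hochberg adjusted p-values over all genes tested come from edgeR's quasi-likelihood test, a gene is called, and said to rise or fall, where the adjusted p is under 0.05, and CPM are scaled by TMM library sizes. A change given as a plain number with its standard error (SE) is a log2 fold change, and an interval is its 95% confidence interval. No label says that the libraries of a group came from separate cultures, so p-values measure the spread between these libraries, which may be technical.

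Per kilobase of exon, the only scale on which genes are compared here, GART was the most abundant enzyme in the Vector libraries at 20.1 ± 0.0683 CPM per kb (SD, n = 3). IMPDH2 followed at 15.7 ± 0.365, ATIC at 9.97 ± 0.84 and PAICS at 5.37 ± 0.0984 CPM per kb, each without overlap with the next. Below them CTPS1 (3.77 ± 0.363) lay above CAD (2.95 ± 0.243), while the libraries of CAD overlapped with those of UMPS (2.71 ± 0.13), and UMPS with PPAT (2.57 ± 0.0647). DHODH (1.33 ± 0.104) and PFAS (0.794 ± 0.166) closed the order. In siNC the mean was 20.7 ± 0.299 CPM per kb for GART and 20.4 ± 1.94 for IMPDH2, whose libraries overlapped, and ATIC followed at 15 ± 1.48. CTPS1 (9.84 ± 0.321) and PAICS (9.19 ± 0.647) overlapped as well, and UMPS, CAD, PPAT, PFAS and DHODH stood at 5.54 ± 0.236, 3.81 ± 0.13, 2.71 ± 0.262, 1.73 ± 0.0902 and 1.42 ± 0.157 CPM per kb. The last place thus belonged to PFAS in Vector and to DHODH in siNC.

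**Figure D1:**
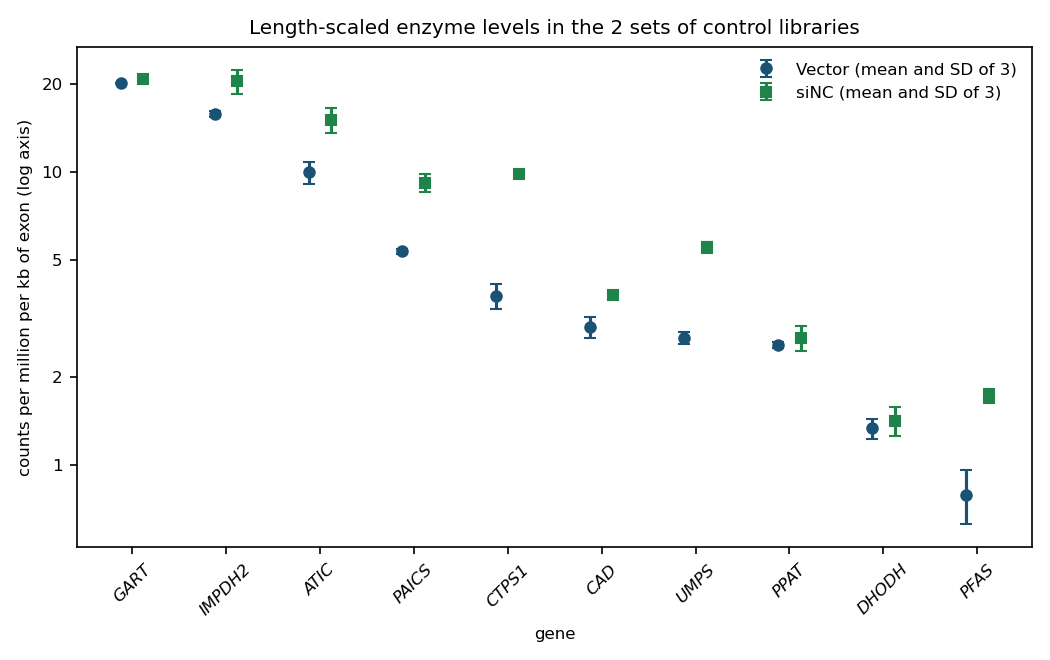
Level of each enzyme per kilobase of exon (log axis, CPM per kb) in the Vector and siNC control libraries, with the mean and SD of 3 libraries. GART led both orders, at 20.1 in Vector and 20.7 in siNC, and PFAS at 0.794 in Vector was the lowest point.

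The same gene could stand at very different levels in the controls of the 3 experiments. PAICS was at 248 ± 11.2 CPM in WT1, 40.3 ± 0.74 in Vector and 69.1 ± 4.86 in siNC (SD, n = 3 each). PFAS was at 33.9 ± 5.29, 5.14 ± 1.08 and 11.2 ± 0.584 CPM, and CAD at 117 ± 7.96, 24.9 ± 2.05 and 32.1 ± 1.09. DHODH stayed at 7.89 ± 0.348, 9.23 ± 0.723 and 9.8 ± 1.08 CPM. The experiments were counted and deposited separately, and experiment and cell background cannot be told apart here, so no test was made between them.

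In KO1 most of the 10 synthesis enzymes were higher. Of them, 9 rose and none fell against WT1, where 17.9% of all 17865 genes tested rose, 18.2% fell and 36.1% were called in either direction. The increases were modest, up to 55.9% for IMPDH2. The median log2 fold change of the 10 was 0.43 beside −0.002 over all genes. With scaling by total counts alone it was 0.38 beside −0.05. The calls over all genes were then 2649 higher and 3729 lower, beside 3204 and 3250 by TMM. In bulk RNA, fewer or more cells of a kind and less or more RNA per cell cannot be told apart. KO2 gave the same direction for fewer genes, with 7 of 10 higher and none lower against WT2, where 19.3% of 18267 genes rose, 19.2% fell and 38.5% were called. The median there was 0.24 beside −0.02 over all genes. By total counts alone it was 0.20 beside −0.06, with 2912 genes higher and 4126 lower (3527 and 3507 by TMM). In both knockouts 6 of the enzymes rose, CAD, CTPS1, PFAS, PAICS, ATIC and IMPDH2, as did 9.44% of the 17445 genes tested in both. Of the urothelial markers, 4 of 11 tested were higher and 2 lower in KO1. In KO2, 4 of 12 were higher and 4 lower. KRT5 had the largest called rise in KO1 (0.46, adjusted p = 1.15e-05) and GATA3 the largest fall (−1.35, adjusted p = 3.47e-07). The part of these markers in the enzymes' values was not tested.

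Of the purine enzymes, PPAT measured 46.1, 54.1 and 52.2 CPM in the WT1 libraries and 56.7, 62.1 and 60.5 in KO1. The KO1 libraries all lay above WT1, and PPAT rose by 0.23 (SE 0.07, adjusted p = 0.0226). In KO2 PPAT was at 46.6, 50.9 and 45.5 CPM against 46.5, 45.8 and 42.8 in WT2, groups that overlapped, and its change, 0.08 (SE 0.06, adjusted p = 0.331), did not pass. The rise in KO1 was the least secure of the 9: the adjusted p was 0.0878 without WT1 replicate 1, 0.055 without KO1 replicate 2 and 0.0607 without KO1 replicate 3. Of the 10 enzymes PPAT also had the largest difference between WT2 and WT1, at −0.17 (adjusted p = 0.253, interval −0.31 to −0.03).

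GART, which carries several activities of the purine ring pathway, was the exception in KO1. Its libraries there measured 226, 236 and 228 CPM against 203, 221 and 213 in WT1, which did not overlap, yet the change, 0.11 (SE 0.05, adjusted p = 0.0901), missed the threshold. In KO2 GART was at 265, 250.1 and 251 CPM against 209, 203 and 216 in WT2 and rose by 0.28 (SE 0.04, adjusted p = 9.13e-05). GART is the only enzyme of the 10 on chromosome 21. The 201 genes of that chromosome tested in KO1 had a median log2 fold change of −0.28, and the 78 within 5 Mb of GART had one of −0.22. In KO2 the medians were 0.15 over 209 genes and 0.09 over 80 genes. For the chromosomes of the other 9 enzymes the medians ran from −0.01 to 0.06 in KO1 and from −0.10 to 0.08 in KO2. The part of the chromosome in the values of GART was not tested.

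PFAS, which also acts in the assembly of the ring, was at 40, 31.4 and 30.3 CPM in WT1 and 45, 43 and 45.4 in KO1. It was at 29.3, 31.8 and 32.3 CPM in WT2 and 41, 34.3 and 37.6 in KO2. Neither pair of groups overlapped, although WT1 replicate 1 stood well above the other WT1 libraries. PFAS rose by 0.39 (SE 0.10, adjusted p = 0.00801) in KO1 and by 0.27 (SE 0.07, adjusted p = 0.00868) in KO2. The rise in KO2 was 0.21 (adjusted p = 0.0718) when all WT libraries served as the control.

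PAICS, a bifunctional enzyme of the middle of the pathway, was at 236, 249.7 and 258 CPM in WT1 and 348, 360.3 and 346 in KO1. Its KO2 libraries were at 267, 274 and 275 CPM against 245, 239.7 and 245 in WT2. Every knockout library exceeded every control library of its pair, with rises of 0.50 (SE 0.05, adjusted p = 1.62e-05) and 0.16 (SE 0.03, adjusted p = 0.0021). PPAT, on the other side of the shared start region, thus rose by 0.23 in KO1 where PAICS rose by 0.50.

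ATIC, which completes inosine monophosphate, measured 88, 89.2 and 92.2 CPM in WT1, 119, 124 and 128 in KO1, 85, 86.8 and 88.2 in WT2 and 98.4, 99.9 and 105.3 in KO2. It rose by 0.46 (SE 0.05, adjusted p = 4.23e-05) and 0.22 (SE 0.04, adjusted p = 0.00127), with no overlap in either pair. IMPDH2, the gateway to guanine nucleotides, was at 87.6, 79.5 and 91.4 CPM in WT1 and 127, 135 and 141 in KO1, and at 86.9, 88.8 and 86.6 in WT2 and 110.4, 121 and 110.2 in KO2. The groups did not overlap, and the rises of 0.64 (SE 0.06, adjusted p = 2.15e-05) in KO1 and 0.37 (SE 0.05, adjusted p = 4.69e-05) in KO2 were the largest of the 10 in each knockout.

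Among the pyrimidine enzymes, CAD was at 122, 120.2 and 108 CPM in WT1 and 155, 148 and 164 in KO1, and at 108, 107 and 112 in WT2 and 133, 133 and 129.8 in KO2. It rose in both, by 0.42 (SE 0.06, adjusted p = 0.000353) and 0.27 (SE 0.04, adjusted p = 0.000143), with all knockout libraries above their controls. DHODH was at 7.98, 8.18 and 7.5 CPM in WT1 and 11.5, 10.3 and 10.3 in KO1 and rose by 0.44 (SE 0.11, adjusted p = 0.00835). Its KO2 libraries at 9.96, 9.24 and 8.53 CPM overlapped with WT2 at 7.09, 9.71 and 8.04, and 0.15 (SE 0.13, adjusted p = 0.402) did not pass, with an interval of −0.13 to 0.44.

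UMPS was at 78.1, 78 and 78.2 CPM in WT1 and 93.8, 90 and 86.9 in KO1 and rose by 0.21 (SE 0.05, adjusted p = 0.00722). In KO2 it was at 79.5, 84.4 and 74.6 CPM against 82.8, 83 and 87.4 in WT2, overlapping groups that differed by −0.09 (SE 0.05, adjusted p = 0.199). CTPS1 was at 81.3, 83.7 and 82.3 CPM in WT1, 124, 126 and 118 in KO1, 82.9, 87.1 and 81.1 in WT2 and 109, 108 and 99.2 in KO2. It rose by 0.57 (SE 0.05, adjusted p = 7.34e-06) and 0.33 (SE 0.05, adjusted p = 0.000231), and its groups did not overlap. By a call that also required a fold of at least 1.5, IMPDH2 in KO1 was the only enzyme left in KO1 and none was left in KO2. Over all genes tested, that rule left 2195 of 17865 in KO1 and 2212 of 18267 in KO2.

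**Figure D2:**
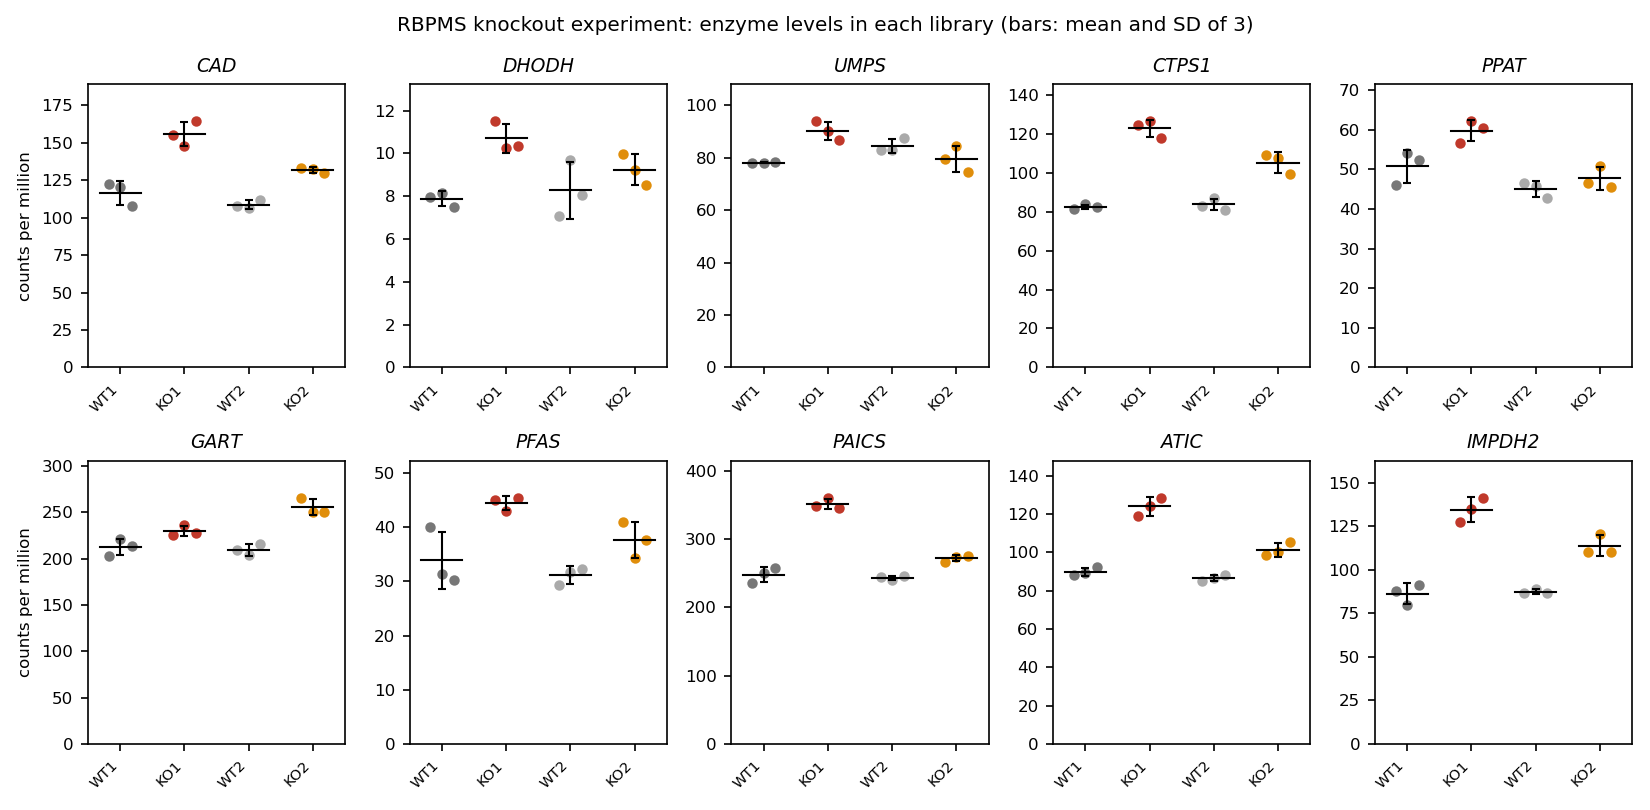
CPM of the 10 enzymes in each library of the knockout experiment, on axes from 0, with points for libraries and bars for the mean and SD of 3. In KO1 all 10 enzymes stand above WT1 without overlap, as do 24% of all genes tested there. In KO2 all but DHODH, UMPS and PPAT do so against WT2, beside 24.8% of all genes.

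The control groups WT1 and WT2, compared in the same way, differed in 0 of 10 enzymes by edgeR, with 1.23% of 18335 genes called, 0.578% higher and 0.654% lower in WT2. At an unadjusted p under 0.05 by edgeR the count was 2 (PPAT and UMPS), beside 2444 of the 18335 genes. DESeq2 called 0 enzymes. The difference between the knockout effects was tested over all libraries of the experiment, as KO1 minus WT1 less KO2 minus WT2, where 23.3% of 19189 genes were called, 11.2% with a positive difference and 12.1% with a negative one. The difference was positive for 5 enzymes: PAICS by 0.34 (SE 0.05, adjusted p = 0.00021), UMPS by 0.30 (SE 0.07, adjusted p = 0.0059), IMPDH2 by 0.26 (SE 0.08, adjusted p = 0.0254), CTPS1 by 0.25 (SE 0.07, adjusted p = 0.014) and ATIC by 0.24 (SE 0.06, adjusted p = 0.01). The call for IMPDH2 was lost without any one of 5 of the 12 libraries (adjusted p from 0.0646 to 0.0892). It was negative for GART, at −0.17 (SE 0.06, adjusted p = 0.0466), and this call was lost without the filter on low counts (adjusted p = 0.113) and with the replicate number as a block (adjusted p = 0.0576). For CAD, DHODH, PPAT and PFAS the differences were 0.14, 0.28, 0.15 and 0.12 and did not pass, with intervals reaching from −0.01 to 0.30 for CAD to −0.08 to 0.64 for DHODH.

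With ANKRD10-2 overexpression, 4 of the 10 enzymes rose, all in the purine branch, and none fell, where 10.7% of 20177 genes rose, 9.25% fell and 19.9% were called in either direction. The split of all calls depended on scaling, with 2151 higher and 1866 lower by TMM and 1204 higher and 3152 lower by total counts alone. PAICS was at 40.7, 40.8 and 39.5 CPM in Vector and 50.9, 49.7 and 51.4 in ANKRD10-2, a clear gap, and rose by 0.33 (SE 0.05, adjusted p = 0.000677). IMPDH2 was at 44, 42.5 and 44.4 CPM in Vector and 60.8, 55.2 and 49.8 in ANKRD10-2. Its overexpressing libraries were spread widely but all above Vector, with a rise of 0.34 (SE 0.07, adjusted p = 0.0036).

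PPAT measured 13.8, 14.4 and 13.7 CPM in Vector and 16.8, 17.3 and 17.7 in ANKRD10-2 and rose by 0.31 (SE 0.07, adjusted p = 0.00877). GART measured 156, 155 and 156 CPM in Vector and 167, 179 and 178 in ANKRD10-2. These groups were also apart, and the rise was 0.17 (SE 0.05, adjusted p = 0.0216). It did not pass by total counts alone (0.09, adjusted p = 0.208), and without 5 of the 6 libraries, each left out in turn, the adjusted p lay above 0.05 with log2 fold changes from 0.15 to 0.17. The other 6 enzymes did not pass, with log2 fold changes of 0.18 for CAD, 0.14 for ATIC, 0.04 for DHODH, −0.02 for CTPS1, −0.09 for UMPS and −0.34 for PFAS. CAD would pass without ANKRD10-2 replicate 1 (0.26, adjusted p = 0.0486) and PFAS without Vector replicate 2 (−0.48, adjusted p = 0.0387). In the ANKRD10-2 libraries 7 of the 11 urothelial markers tested were higher and none lower, with a summed level from 3375 to 3780 CPM against 2944 to 3126 in Vector, and the part of these markers in the enzymes' values was not tested.

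With ANKRD10-1, 2 enzymes rose and none fell, where 3.5% of 20457 genes rose, 2.81% fell and 6.31% were called. By total counts alone the calls over all genes were 418 higher and 937 lower, beside 717 and 574 by TMM. GART was at 180.4, 176 and 171 CPM and rose by 0.17 (SE 0.04, adjusted p = 0.0195). IMPDH2 was at 52.7, 48.4 and 53.2 CPM and rose by 0.24 (SE 0.05, adjusted p = 0.0124). Both groups lay above the Vector libraries, but neither call was secure: leaving out ANKRD10-1 replicate 1 or Vector replicate 2 ended both, and leaving out ANKRD10-1 replicate 2 or 3 or Vector replicate 1 left 1. By total counts alone the value of GART was 0.13 (adjusted p = 0.0731), which ended its call. The urothelial markers had 4 of 11 higher and none lower, with a summed level from 3290 to 3360 CPM, and their part was not tested either. PAICS, at 42.8, 42.4 and 40 CPM, overlapped with Vector, with 0.05 (SE 0.05, adjusted p = 0.661).

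The isoforms were compared directly, without the control group. Of the 10 enzymes, 1 differed, where 7.26% of 20052 genes were called, 4.15% higher and 3.1% lower with ANKRD10-2 (833 higher and 622 lower by TMM, 557 and 894 by total counts alone). PAICS was higher with ANKRD10-2 than with ANKRD10-1 by 0.28 (SE 0.06, adjusted p = 0.00416), and the groups did not overlap. For IMPDH2 and GART the differences were 0.10 (interval −0.04 to 0.25) and −0.01 (interval −0.12 to 0.10). UMPS was at 17.6, 19 and 21 CPM with ANKRD10-2 and 22.5, 21.4 and 22.4 with ANKRD10-1, groups that did not overlap, with a difference of −0.20 (SE 0.08, adjusted p = 0.121).

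After siANKRD10-2, 5 of the 10 enzymes fell and none rose, where 18.7% of 18924 genes fell, 17.6% rose and 36.3% were called in either direction. PAICS was at 66.9, 65.7 and 74.6 CPM in siNC and 42.4, 45.3 and 47.6 in siANKRD10-2. It was lower by 34.6%, the largest change of the 10 enzymes in the overexpression and knockdown experiments, at −0.61 (SE 0.06, adjusted p = 2.12e-08) on the log2 scale. It was also the only enzyme left under the stricter rule of a fold of at least 1.5, which left 1774 of the 18924 genes tested.

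PPAT, across the start region from PAICS, was at 16.3, 13.5 and 14.4 CPM in siNC and 10.1, 12.7 and 11.1 in siANKRD10-2 and was lower, with −0.38 (SE 0.10, adjusted p = 0.00327). ATIC was at 57.4, 54.3 and 65.5 CPM in siNC and 45.1, 46.7 and 44.6 in siANKRD10-2, with −0.38 (SE 0.07, adjusted p = 4.75e-05). The values of ATIC and PPAT were apart between the groups, although siNC replicate 3 was high for ATIC. IMPDH2 was at 53.5, 53.3 and 62.7 CPM in siNC and 45.5, 42.9 and 42.7 in siANKRD10-2, with −0.37 (SE 0.07, adjusted p = 6.61e-05).

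UMPS was the pyrimidine enzyme that fell, from 39.9, 42.8 and 43.2 CPM in siNC to 33.6, 32.7 and 34.6 in siANKRD10-2, with −0.32 (SE 0.06, adjusted p = 0.000206) and no overlap. The remaining enzymes did not pass: 0.08 for CAD, 0.11 for CTPS1, 0.10 for GART, 0.02 for PFAS and −0.21 for DHODH. DHODH passed without siNC replicate 1 (−0.30, adjusted p = 0.0437). CAD, CTPS1 and GART had all siANKRD10-2 libraries above siNC, as had 22.7% of all genes tested, with intervals of −0.05 to 0.21, −0.01 to 0.23 and −0.01 to 0.20. In the same libraries 7 of the 11 urothelial markers tested were lower and none higher, KRT5 at −1.06 on the log2 scale. The summed level of the 14 listed markers ran from 3405 to 3521 CPM there and from 5449 to 5772 in siNC, and the part of this shift in the enzymes' values was not tested.

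After siANKRD10-1, 0 of the 10 enzymes passed by edgeR, where 10.6% of 18785 genes were called, 5.08% higher and 5.52% lower. By DESeq2 the count was also 0, and 1 enzyme, PPAT, had an unadjusted p under 0.05 by either tool. Over all genes, 4715 of the 18785 had an unadjusted p under 0.05 by edgeR. PPAT was at 12.7, 11.6 and 11.9 CPM, all below siNC, with −0.29 (SE 0.09, adjusted p = 0.0538), close to the threshold. It passed without the filter on low counts (adjusted p = 0.048) and with the replicate number as a block (−0.28, adjusted p = 0.0286). Of the 11 urothelial markers tested, 4 were lower and none higher, with a summed level from 4557 to 4893 CPM, and their part was not tested. PAICS (66.1, 67.6 and 67.5 CPM), ATIC (56.9, 55.2 and 55.5) and UMPS (42.9, 45.6 and 44.9) overlapped with siNC and had log2 fold changes of −0.04, −0.08 and 0.08.

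Compared directly, the knockdowns differed in 5 of the 10 enzymes, where 37% of 18832 genes were called, 18.2% higher and 18.8% lower with siANKRD10-2. PAICS (−0.57, SE 0.06, adjusted p = 1.16e-07), UMPS (−0.40, SE 0.06, adjusted p = 2.30e-05), ATIC (−0.29, SE 0.06, adjusted p = 0.000319) and IMPDH2 (−0.22, SE 0.06, adjusted p = 0.00507) were lower with siANKRD10-2 than with siANKRD10-1, and GART was higher (0.18, SE 0.05, adjusted p = 0.00842). The call for GART was lost without siANKRD10-1 replicate 1 (adjusted p = 0.0534) or siANKRD10-2 replicate 1 (adjusted p = 0.062). GART stood at 150.1, 155 and 149.5 CPM after siANKRD10-1 and 178, 169 and 167 after siANKRD10-2, on either side of siNC at 163, 159.8 and 159. PPAT differed by −0.09, with an interval of −0.30 to 0.11.

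**Figure D3:**
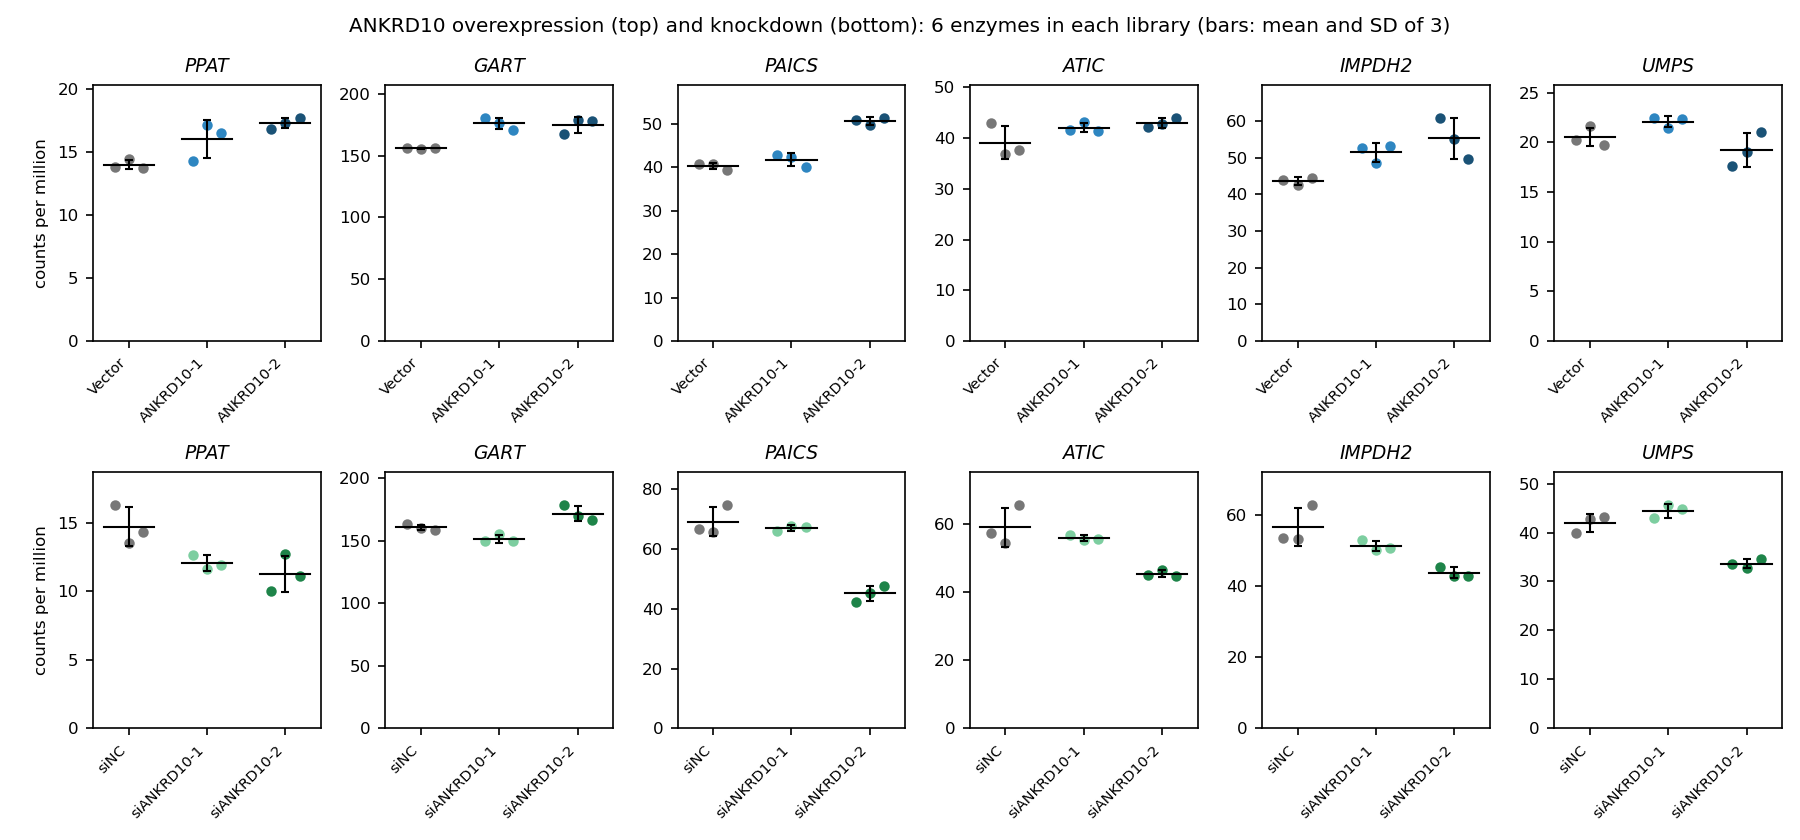
CPM of 6 enzymes in each library of the overexpression (top) and knockdown (bottom) experiments, on axes from 0, with points for libraries and bars for the mean and SD of 3. PAICS stands out with ANKRD10-2, at 49.7 to 51.4 CPM against 39.5 to 40.8 in Vector, and after siANKRD10-2, at 42.4 to 47.6 against 65.7 to 74.6 in siNC.

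Set side by side, PAICS and IMPDH2 were the 2 enzymes that rose in both knockouts and with ANKRD10-2 and fell after siANKRD10-2, a pattern that 211 of the 13294 symbols tested in all of these comparisons showed (1.59%). PPAT, ATIC and UMPS also fell after siANKRD10-2, of which PPAT rose with ANKRD10-2. CAD, CTPS1, PFAS and DHODH were called in the knockout experiment only. IMPDH2 was called in 5 of the 6 comparisons with a control group, more than any other enzyme. ANKRD10-2 and ANKRD10-1 share the Vector libraries, and siANKRD10-2 and siANKRD10-1 share siNC, so their values are not independent.

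**Figure D4:**
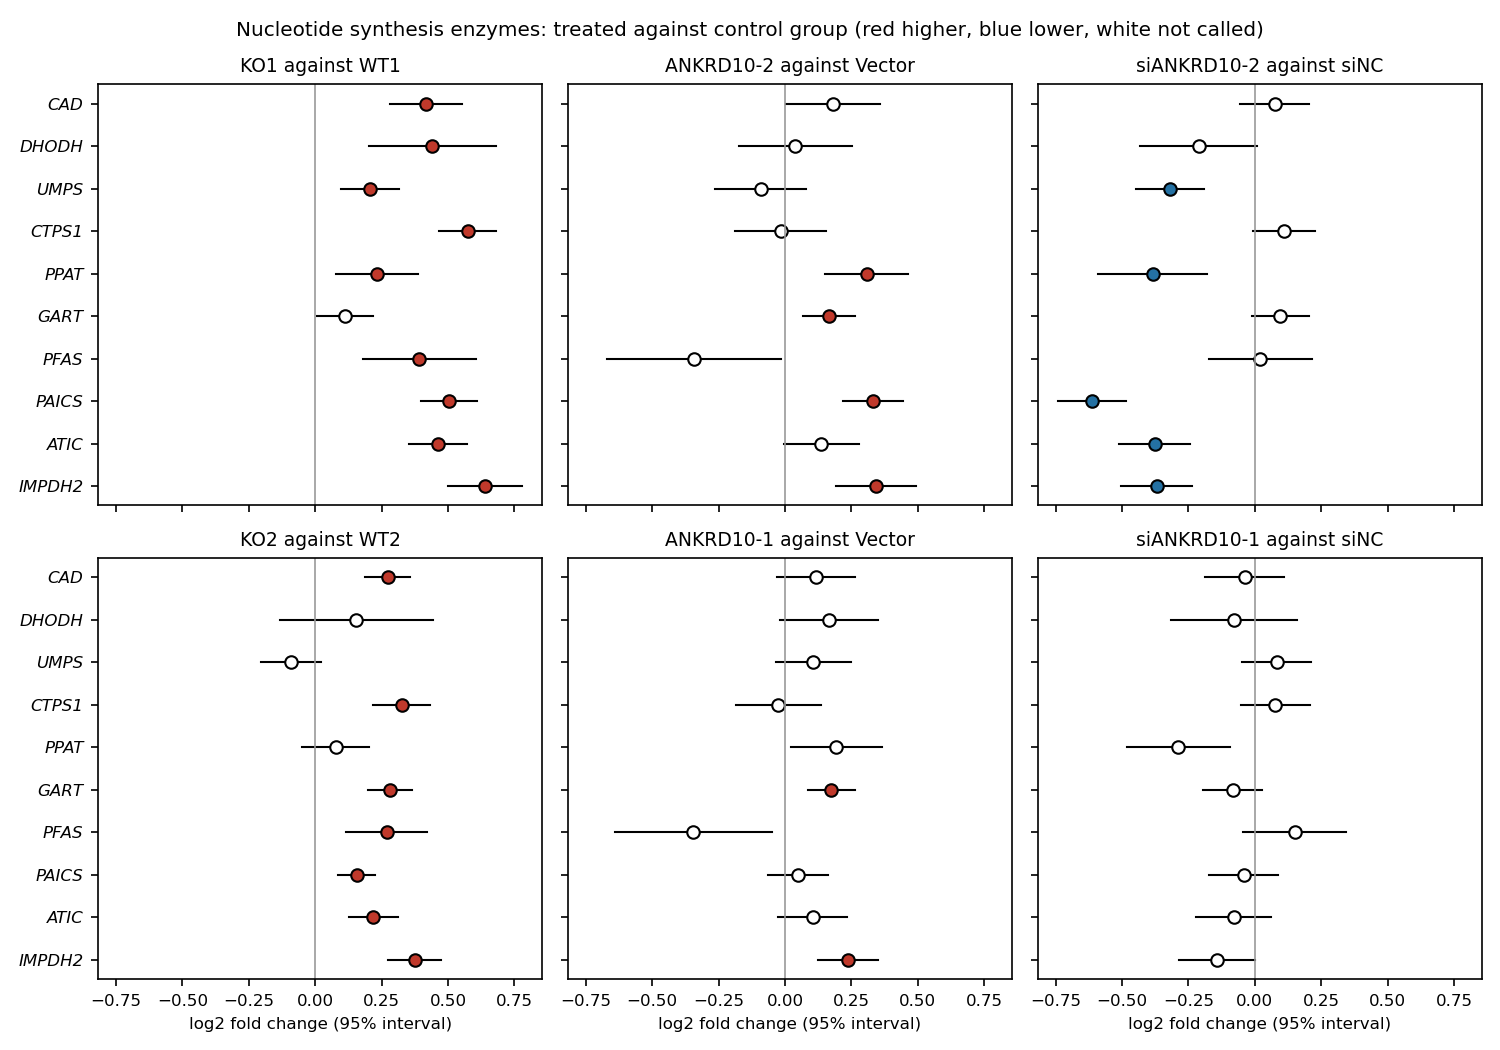
Log2 fold change of each enzyme against its control group with its 95% interval (x axis) in the 6 comparisons, filled red where higher, blue where lower and white where not called. Counts of called enzymes run from 9 higher in KO1 and 7 higher in KO2 to 4 and 2 higher with ANKRD10-2 and ANKRD10-1, 5 lower after siANKRD10-2 and 0 after siANKRD10-1.

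MYC itself was measured in the same libraries. It was at 145, 133 and 134 CPM in WT1 and 184, 181 and 187 in KO1 and rose by 0.42 (SE 0.05, adjusted p = 7.32e-05), and in KO2 it rose by 0.17 (SE 0.05, adjusted p = 0.032). It was at 52.1, 49.3 and 51.6 CPM in Vector and 80.6, 72.2 and 71.3 in ANKRD10-2, a rise of 0.55 (SE 0.06, adjusted p = 2.16e-05), while with ANKRD10-1 the value was 0.16 (SE 0.05, adjusted p = 0.0914). In siNC MYC was at 46.7, 45.1 and 48.4 CPM and in siANKRD10-2 at 32.3, 31.3 and 29, with −0.60 (SE 0.06, adjusted p = 3.72e-08), and after siANKRD10-1 the value was 0.08 (SE 0.06, adjusted p = 0.469). MAX rose in KO1 (0.41, adjusted p = 0.000708) and fell after siANKRD10-2 (−0.44, adjusted p = 1.50e-06), and its values of 0.10 in KO2, 0.13 with ANKRD10-2, 0.17 with ANKRD10-1 and −0.15 after siANKRD10-1 did not pass. Whether the levels of MYC or MAX had a part in those of the enzymes was not tested.

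The isozymes of IMPDH2 and CTPS1 gave other values. IMPDH1, the other IMP dehydrogenase, rose in KO1 (0.30, adjusted p = 0.012), KO2 (0.31, adjusted p = 0.00041) and with ANKRD10-2 (0.29, adjusted p = 0.0113), as IMPDH2 did. After siANKRD10-2, where IMPDH2 fell, IMPDH1 was at 15.2, 19.3 and 17.2 CPM against 17.5, 16.1 and 14.6 in siNC, with 0.10 (SE 0.09, adjusted p = 0.438), and after siANKRD10-1 it rose (0.28, adjusted p = 0.0433). CTPS2, the other CTP synthase, fell in KO1 (−0.16, adjusted p = 0.0245), where CTPS1 rose, and fell with ANKRD10-2 (−0.31, adjusted p = 0.00574) and ANKRD10-1 (−0.23, adjusted p = 0.0358). In KO2 CTPS2 was at 69.1, 63.1 and 69.1 CPM against 76.1, 68.6 and 77.5 in WT2, with −0.15 (SE 0.06, adjusted p = 0.0596). The differences between isozymes were not tested.

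The rest of the de novo route and the neighbouring pathways were counted in the same way, and their counts stand beside the shares of all genes tested, 17.9% higher and 18.2% lower in KO1, 19.3% and 19.2% in KO2, 10.7% and 9.25% with ANKRD10-2, 3.5% and 2.81% with ANKRD10-1, 17.6% and 18.7% after siANKRD10-2 and 5.08% and 5.52% after siANKRD10-1. Of 8 further enzymes (PRPS1, PRPS2, ADSL, ADSS1, ADSS2, GMPS, IMPDH1 and CTPS2), 4 were higher and 1 lower in each knockout, with medians of 0.15 in KO1 and 0.03 in KO2 against the same medians over all genes. ADSL, which acts on both sides of ATIC, had the largest rise in KO1 (0.63, adjusted p = 1.22e-05), and PRPS1, which makes the activated ribose that PPAT uses, had it in KO2 (0.50, adjusted p = 2.21e-06). PRPS2, its paralog, had the largest fall there (−0.21, adjusted p = 0.000541). With ANKRD10-2, 3 of the 8 were higher and 1 lower, and after siANKRD10-2, 1 was higher (PRPS1, 0.39, adjusted p = 6.89e-06) and 2 lower, with the larger fall in GMPS (−0.36, adjusted p = 2.61e-05), which makes GMP from the product of IMPDH2. With ANKRD10-1, 0 were higher and 1 lower, and after siANKRD10-1, 1 was higher and 0 lower.

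Salvage enzymes, which recover bases and nucleosides, had 6 higher and 1 lower of 13 in KO1 (median 0.26), 4 higher and 1 lower in KO2 (median 0.06), and 4 higher and 0 lower with ANKRD10-2 (median 0.11). UPP1, uridine phosphorylase, had the largest rise in all 4 comparisons of knockout and overexpression, by 0.67 in KO1, 1.25 in KO2, 0.87 with ANKRD10-2 and 0.53 with ANKRD10-1. After siANKRD10-2, 1 was higher and 4 lower. With ANKRD10-1, 1 was higher and 0 lower, and after siANKRD10-1, 0 were called. Nucleotide kinases, which carry monophosphates to triphosphates, had 6 higher and 0 lower of 11 in KO1 (median 0.26), 6 higher and 1 lower in KO2 (median 0.23), and 0 higher and 6 lower after siANKRD10-2 (median −0.39). GUK1, guanylate kinase, led the rises in KO1 (0.69, adjusted p = 7.95e-06). With ANKRD10-2, 4 kinases were higher, led by NME1, a nucleoside diphosphate kinase (0.61, adjusted p = 3.21e-06), and 2 were lower, led by CMPK2, a mitochondrial UMP-CMP kinase (−3.72, adjusted p = 2.78e-06). CMPK2 was scarce, at a mean of 1.97 CPM in Vector and 0.15 in ANKRD10-2, and was also lower with ANKRD10-1 (−3.25, adjusted p = 5.77e-07). In KO2 CMPK2 was instead higher, at a mean of 1.93 CPM against 1.10 in WT2 (0.80, adjusted p = 0.0402). CMPK1, which phosphorylates UMP and CMP in the cytosol, led the falls after siANKRD10-2 (−1.17, adjusted p = 1.11e-12). With ANKRD10-1, 2 kinases were higher and 1 lower, and after siANKRD10-1, 2 were higher and 1 lower.

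Folate and one-carbon enzymes, which supply carbons to GART, ATIC and thymidylate, had 8 higher and 3 lower of 14 in KO1 (median 0.31) and 6 higher and 4 lower in KO2 (median 0.06). The folate carriers SLC25A32 in KO1 (0.49, adjusted p = 0.000126) and SLC19A1 in KO2 (0.59, adjusted p = 3.07e-05) had the largest rises. With ANKRD10-2, 4 were higher and 0 lower, and after siANKRD10-2, 1 was higher and 2 lower. With ANKRD10-1, 3 were higher and 0 lower, and after siANKRD10-1, 0 were higher and 1 lower. Enzymes that make or break down deoxynucleotides had 3 higher and 0 lower of 9 in KO1 (median 0.12). In KO2, 2 of 9 were higher, near the 19.3% of all genes. There 4 of 9 were lower, beside 19.2% of all genes (median −0.08). With ANKRD10-2, with ANKRD10-1 and after siANKRD10-2, 0 were higher and 2 lower each time. After siANKRD10-1, 0 were called. SAMHD1, which breaks down deoxynucleoside triphosphates, was far lower with ANKRD10-2 (−1.32, adjusted p = 1.32e-09) and ANKRD10-1 (−1.19, adjusted p = 1.29e-11). Of 12 breakdown enzymes tested among 13 listed, 5 were higher and 1 lower in KO1 and 7 higher and 1 lower in KO2. NT5E, the ecto-nucleotidase CD73, had the largest rise in KO2 (2.40, adjusted p = 3.23e-10). After siANKRD10-2, 0 breakdown enzymes were higher and 6 lower, and after siANKRD10-1, 0 were higher and 1 lower. With ANKRD10-2, 1 was higher and 2 lower, and with ANKRD10-1, 0 were higher and 4 lower.

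Proliferation markers changed in both directions in the knockouts. Of 15 such genes, 4 were higher and 5 lower in KO1, where 17.9% of all genes tested were higher and 18.2% lower. In KO2, 2 were higher and 8 lower, where 19.3% of all genes were higher and 19.2% lower. The medians of the 15 were −0.01 in KO1 and −0.11 in KO2, beside −0.002 and −0.02 over all genes. PLK1, a mitotic kinase, rose in both (0.37 and 0.36), while PCNA, the clamp of DNA polymerase, had the largest fall in KO1 (−0.47, adjusted p = 0.000115) and MCM3, a subunit of the replicative helicase, in KO2 (−0.42, adjusted p = 1.88e-06). The summed level of the 15 ran from 4975 to 5221 CPM in KO1 and from 5209 to 5475 in WT1, and from 4827 to 4897 in KO2 and 5456 to 5555 in WT2. The summed level of the 10 synthesis enzymes ran from 1307 to 1336 CPM in KO1, 990.3 to 1015 in WT1, 1137 to 1164 in KO2 and 982 to 999.8 in WT2. After siANKRD10-2 the proliferation list had 4 higher and 5 lower, where 17.6% of all genes were higher and 18.7% lower. The 10 enzymes summed to 460.2 to 465 CPM there against 498 to 527 in siNC.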

How the data were processed

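Poly(A) RNA of 30 libraries was sequenced. Per the labels, the authors deposited whole-number read counts per gene, without normalization, in 1 table per experiment. The submitters' processing notes name Trimmomatic 0.36, featureCounts, Subread 1.5.1 and GRCh38, and the methods of the study name Cutadapt, FastQC, HISAT2, StringTie and DESeq2. The strand setting of the counting is not given in the sources used here. Every column matched a labelled library, and groups follow the sample titles.

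Counts were analysed in R 4.3.3 with edgeR 4.0.16 (with limma 3.58.1): filterByExpr (minimum count 10, minimum total 15), TMM, a quasi-likelihood fit of only the groups compared, prior count 0.125 and Benjamini-Hochberg adjustment over all genes tested, with a call at an adjusted p under 0.05. The difference between the knockouts used all libraries of its table. The smallest p of an exact permutation test is 0.1 for 3 libraries against 3, so none was used for a call. Scripts were tested on simulated data. Replicates of a group differed by more than counting noise (chi-square per degree of freedom from 3.85 to 16.8), so none was merged. DESeq2 1.42.0 and other alternatives are described at the end.

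The members and gene lists were chosen with earlier results of these data known. The genes named are the 10 enzymes, RBPMS, ANKRD10, MYC, MAX, IMPDH1 and CTPS2, and in each other list the largest called rise and fall of each comparison with a control group, of which the text gives a selection, and 1 of these genes is not reported here. KRT7, KRT8, KRT18, KRT19, EPCAM, CDH1, GATA3, COL1A1, COL1A2, LUM, PDGFRB, CD68, KRT20, UPK3A, PTPRC, CD3E, CDH5, PECAM1, VWF and KDR serve as marker checks. Gene positions and exon overlaps come from GENCODE v29 and promoters from RefSeq.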

Additional observations from a re-analysis of the deposited data

Results flagged for a closer look

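The enzymes listed here are those whose change in KO1 differed from that in KO2, by a test of the difference itself over all libraries of the knockout experiment. On the log2 scale, KO1 minus KO2, the differences were 0.34 for PAICS, 0.30 for UMPS, 0.26 for IMPDH2, 0.25 for CTPS1, 0.24 for ATIC and −0.17 for GART. For GART the adjusted p was 0.0466. It was 0.113 without the filter on low counts, 0.0576 with the replicate number as a block, and above 0.05 without any one of 9 of the 12 libraries. The difference for IMPDH2 lost its call without any one of 5 of the 12 libraries, with values from 0.20 to 0.25. These were KO1 replicate 3, KO2 replicates 1 and 3, WT1 replicate 2 and WT2 replicate 2. Leaving out a library ended no other of these calls. For PAICS, ATIC, CTPS1 and IMPDH2 the enzyme rose in both knockouts and the difference lies in the size of the rise. For UMPS the values were 0.21 in KO1 and −0.09 in KO2, and for GART they were 0.11 in KO1 and 0.28 in KO2. Groups of 3 libraries are too small for a test of whether a single library stands apart, so none was made.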

How the results depend on the processing

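The number of enzymes called was within 1.5 times the main count in 60 of 71 alternatives that kept all libraries (DESeq2, RLE or total counts in place of TMM, no filter on low counts, the replicate block, all groups of a table in 1 fit, all WT libraries as control, or a fold of at least 1.5). The rule of a fold of at least 1.5 gave 1 enzyme in KO1 against WT1, 1 after siANKRD10-2 against siNC, and 0 in KO2 against WT2, in ANKRD10-2 or ANKRD10-1 against Vector, in ANKRD10-2 against ANKRD10-1, in siANKRD10-2 against siANKRD10-1 and in the difference between the knockouts. Over all genes tested, it left 2195 of 17865 in KO1, 2212 of 18267 in KO2 and 1774 of 18924 after siANKRD10-2. It left 761 of 20177 with ANKRD10-2 and 180 of 20457 with ANKRD10-1. Between the isoforms of overexpression and knockdown it left 256 of 20052 and 1847 of 18832. For the difference between the knockouts it left 1984 of 19189. Total counts alone gave 1 for ANKRD10-1 against Vector. For siANKRD10-1 against siNC, no filter on low counts gave 1 and the replicate block gave 1, in both cases PPAT. Leaving out single libraries, the count ran from 8 to 9 in KO1, 7 to 7 in KO2, 3 to 5 with ANKRD10-2, 0 to 2 with ANKRD10-1, 5 to 6 after siANKRD10-2, 0 to 0 after siANKRD10-1, 1 to 1 and 4 to 5 between the isoforms of overexpression and knockdown, 0 to 0 between WT2 and WT1 and 4 to 6 for the difference between the knockouts. For ANKRD10-1 it was 0 without ANKRD10-1 replicate 1 or Vector replicate 2, and 1 without ANKRD10-1 replicate 2 or 3 or Vector replicate 1.

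The replicate block changed no other count by over 1.5 times. Same-numbered libraries did not deviate together (correlations from −0.08 to 0.17, none of 12 pairs of groups with all over 0.1), so the libraries share only a number.

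Signs turned only for values near 0 that were not called. PPAT in KO2 was −0.0109 against all WT libraries, and DHODH with ANKRD10-2 was −0.0403 by total counts. For ANKRD10-2 against ANKRD10-1, CTPS1 was −0.000639 without the filter and −0.0249 by total counts, PFAS −0.00782 and −0.0325, and ATIC −0.00214 by total counts. With a library left out, the values of ANKRD10-2 against ANKRD10-1 ran from −0.00366 to 0.13 for CAD, −0.0218 to 0.0368 for CTPS1, −0.0305 to 0.0196 for GART and −0.042 to 0.0404 for PFAS. Those of ANKRD10-2 against Vector ran from −0.0647 to 0.0676 for CTPS1 and −0.0335 to 0.0919 for DHODH, and that of ANKRD10-1 against Vector from −0.0751 to 0.0584 for CTPS1. Those of siANKRD10-1 ran from −0.0828 to 0.023 for CAD, −0.17 to 0.0149 for DHODH and −0.0813 to 0.0158 for PAICS, and that of siANKRD10-2 from −0.0186 to 0.0662 for PFAS. GART in KO1 passed with all groups in 1 fit (adjusted p = 0.0437) or against all WT libraries (adjusted p = 0.0199). The cause of these shifts was not tested. Counts cover whole genes, so isoforms and protein levels are not measured, and 3 libraries a group limit what can be called.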
